A study of Mus musculus with 16 samples.

Results

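Urea cycle and amino acid catabolism genes are described here in acute hepatitis of the mouse: Cps1, Otc, Ass1, Asl, Arg1, Tat, Tdo2, Hal and Gls2. They were taken as the spots of the array, control spots left out, whose design name was 1 of these 9 symbols. That gave 13 spots and 13 probes, of 43379 spots and 41174 probes on the array, or 9 of 21275 named genes. Otc had 3 probes, Ass1 and Tdo2 had 2 probes each, and the other genes had 1 each. All 9 passed the filter on dim probes in livers, in inflammatory cells and where both were fitted.

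RNA came from female C57Bl/6 mice, every one of them given 300 µg of concanavalin A, a jack bean lectin whose action on T cells inflames the liver within hours. The treated mice also received 100000 stem cells grown in culture from inguinal fat of C57Bl/6 mice, through the tail vein. Inflammatory cells of the liver at 5 h formed 2 groups of 2 samples, with stem cells given at 3 h and with concanavalin A alone. Livers formed 4 groups of 3 mice: 5 h with stem cells given at 3 h, 5 h with concanavalin A alone, 2 h with stem cells given immediately, and 2 h with concanavalin A alone. Samples are called by the numbers in their labels, mice 1 to 6 and 8 to 13 for livers and 983, 985, 987 and 989 for cells. The source label of samples 983 and 985 also mentions stem cell treatment, which their treatment and description labels do not, and they were used as untreated. The labels do not say whether the samples of cells came from separate mice, so the spread behind their p-values may be technical. Every mouse had received concanavalin A, and the age of the mice was not given.

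Hepatocytes turn the nitrogen of amino acids into urea. Cps1 makes carbamoyl phosphate from ammonia in the mitochondrion, Otc joins it to ornithine to give citrulline, Ass1 and Asl turn citrulline into argininosuccinate and then arginine, and Arg1 splits arginine into urea and ornithine. Tat, Tdo2 and Hal take the first committed steps in the breakdown of tyrosine, tryptophan and histidine, and Gls2, the liver type of glutaminase, frees ammonia from glutamine. Glucocorticoids and glucagon are known inducers of many of these genes in liver, and Ass1, Asl and arginase also serve arginine use in macrophages.

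Each array had 52.1% to 62.5% of its spots well above background, and 0 spots were saturated. Values are log2 signal relative to the 75th percentile of the array, compared for each probe only with itself. The 9 genes were bright in livers: the processed signal ran from 4479 to 101990 units and lay well above background on all 12 liver arrays. In inflammatory cells the signal ran from 5.02 to 2071 units, and 8 of the 9 genes were well above background on all 4 arrays. The exception was Cps1 in sample 983. By lymphocyte markers, cells and livers stood as labelled. T cell markers were higher in cells than in livers for 7 of 9 measured genes and B cell markers for 8 of 8, in both treatments. Of all genes, 28.3% were higher in cells with stem cells and 29.3% with concanavalin A alone. Other lists were less clear at an adjusted p under 0.05 (limma). With concanavalin A alone, macrophage and monocyte markers were higher for 3 of 9 and lower for 2. Neutrophil markers were higher for 3 of 9 and lower for 0. Counts of this size are near or under the share of all genes there, 29.3% higher and 31.7% lower. These markers bear on tissue, not on treatment. All 4 arrays of cells lay on 1 slide that held no liver, so tissue and slide cannot be told apart. Each of the other 3 slides held 1 liver of each group.

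The probes that represent the genes lay, on genome build mm8 as in the file headers, at chr1:67164100-67164159 for Cps1, chrX:9477100-9477159 for Otc, chr2:31340768-31342407 for Ass1, chr5:130296797-130297382 for Asl and chr10:24605804-24605863 for Arg1. Those of the catabolic enzymes lay at chr8:112888436-112888495 for Tat, chr3:82054160-82055437 for Tdo2, chr10:92946189-92946248 for Hal and chr10:127612723-127612782 for Gls2. The ranges of Ass1, Asl and Tdo2 were 1640, 586 and 1278 bases long, and the other 6 ranges were 60 bases long. No annotation of mm8 was used, so the exon under each probe is not given.

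Upstream sequence from RefSeq (GRCm38.p6) matched 5 of the 9 genes, Otc, Ass1, Tat, Tdo2 and Hal. The 250 bases before the start of transcription are shown for Hal, the gene with the greatest differences between liver groups, and for Otc and Ass1, which had the greatest and the least difference between cells and livers among these 5. The Hal window is chr10:93488518-93488767, the Otc window chrX:10252055-10252304 and the Ass1 window chr2:31470020-31470269, all on the plus strand. Capitals mark matches, on either strand, to the TATA box letters TATAAA and to the C/EBP letters TTNNGNAA.
Hal: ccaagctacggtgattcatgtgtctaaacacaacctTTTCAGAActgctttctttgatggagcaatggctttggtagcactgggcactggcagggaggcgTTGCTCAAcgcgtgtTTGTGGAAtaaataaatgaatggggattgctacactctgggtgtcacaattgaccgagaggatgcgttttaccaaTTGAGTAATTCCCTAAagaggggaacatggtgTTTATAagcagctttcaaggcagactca
Otc: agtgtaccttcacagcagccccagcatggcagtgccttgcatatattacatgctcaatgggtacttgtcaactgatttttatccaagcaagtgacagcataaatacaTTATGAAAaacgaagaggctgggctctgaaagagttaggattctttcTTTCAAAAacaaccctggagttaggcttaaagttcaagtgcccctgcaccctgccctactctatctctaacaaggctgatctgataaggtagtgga
Ass1: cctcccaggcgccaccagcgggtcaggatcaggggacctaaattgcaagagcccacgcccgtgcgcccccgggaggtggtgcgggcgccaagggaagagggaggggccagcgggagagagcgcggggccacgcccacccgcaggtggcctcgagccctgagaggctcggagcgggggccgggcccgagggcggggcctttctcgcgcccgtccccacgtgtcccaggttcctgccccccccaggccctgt
Hal held 5 matches to the C/EBP letters, 2 of them side by side, and a TATA match on the minus strand at position -28 from the start. Otc held 2 C/EBP matches and no TATA match. Ass1 held neither, and 75.6% of its bases were G or C, against 45.6% for Hal and 43.6% for Otc. Over all 5 windows, 3 held the C/EBP letters and 2 the TATA letters, while among 21262 mouse promoters of the same length 34.1% and 11.6% did. CCAAT stood in 3 of the 5 windows and in 35.4% of all, and TGACG in 0 of the 5 and in 20.2% of all. These letters are a description of the windows and say nothing of binding.

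Whole livers and inflammatory cells of the liver, from samples with different numbers, differed most. All 9 genes were lower in inflammatory cells than in livers at 5 h, with stem cells and without (limma, all 16 arrays in 1 fit). The background share of genes lower in cells was 35.5% with stem cells and 31.7% with concanavalin A alone. The median log2 difference of the 9 genes was -6.65 with stem cells and -7.28 without, beside -0.23 and -0.04 over all 16283 genes tested. Because RNA was taken in bulk, fewer hepatocytes in a sample and less RNA per hepatocyte cannot be told apart.

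Cps1, the entry enzyme of the cycle, had levels of -2.61 and -1.65 in cells with stem cells, against 6.99, 6.85 and 6.60 in livers with stem cells. In cells after concanavalin A alone it had -5.99 and -3.90, against 6.63, 6.59 and 6.58 in the matching livers. The lower of these cell values, in sample 983, was not well above background. Its log2 difference was -8.94 ± 0.46 with stem cells (adjusted p = 3.74e-09, limma) and -11.54 ± 0.46 with concanavalin A alone (adjusted p = 3.6e-10). The second of these rests in part on the value of sample 983. The fit takes 1 spread per gene over both tissues. The standard deviation of Cps1, however, was 1.48 in untreated cells and 0.02 in the matching livers. The errors after ± for cells against livers can therefore be too small. Under other settings the adjusted p of Cps1 reached 2.17e-05 with stem cells and 2.81e-05 without (limma). With the signal of sample 983 raised to the lowest signal well above background on its array, the difference with concanavalin A alone was -10.88, or 1881-fold, with no test.

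Otc, the other mitochondrial enzyme, had levels of -2.08 and -1.54 in cells with stem cells, against 5.74, 5.39 and 5.49 in livers with stem cells. The levels after concanavalin A alone were -3.92 and -2.50 in cells, against 5.38, 5.36 and 5.29 in livers. Cells and livers lay far apart in both treatments, by -7.35 ± 0.33 (adjusted p = 1.35e-09, limma) and by -8.55 ± 0.33 (adjusted p = 3.04e-10). Of the other Otc probes, 1 gave -7.79 and -9.69. The second value rests in part on sample 983, where that probe was not well above background. The third was dim in livers too and not well above background in any sample of cells, so it allows only a bound: at least 4.98-fold lower in cells with stem cells and at least 4.09-fold lower in cells without.

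The cytosolic enzymes of the cycle differed less. Ass1 had 1.89 and 2.44 in cells with stem cells, against 7.59, 7.40 and 7.46 in livers with stem cells. After concanavalin A alone it had 1.51 and 1.81 in cells, against 7.12, 7.28 and 7.63 in livers. The Ass1 differences, -5.32 ± 0.34 and -5.68 ± 0.34 (adjusted p = 2.79e-08 and 1.39e-08, limma), were the smallest of the 9, and still 39.9-fold and 51.4-fold. Asl was lower in cells by nearly as much, with differences of -5.49 ± 0.21 and -5.69 ± 0.21. Arg1, the arginase of hepatocytes that some activated macrophages also make, had 0.10 and 0.09 in cells with stem cells and 0.44 and -0.73 in cells without. Its levels in livers at 5 h ran from 6.60 to 7.09 with stem cells and from 6.42 to 6.55 without. The Arg1 differences were -6.68 ± 0.30 and -6.61 ± 0.30.

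Among the catabolic enzymes, the 5 h differences between cells and livers ran from -6.02 ± 0.29 for Hal to -7.14 ± 0.28 for Tdo2 with stem cells. With concanavalin A alone they ran from -6.89 ± 0.29 for Hal to -8.06 ± 0.45 for Gls2, and Tat and Tdo2 lay between, at -7.28 ± 0.27 and -7.93 ± 0.28. Hepatocyte markers were lower in cells as well, for 14 of 14 measured genes in each treatment, with medians of -5.72 and -6.33. None of the 14 was lost from the cells: all were well above background on all 4 arrays. Albumin (Alb), for example, had mean levels of 7.25 in cells and 10.47 in livers with stem cells, and 6.22 and 10.23 without. The median level over the marker list was 3.30 and 4.30 in cells with stem cells and 8.95 to 9.39 in the matching livers, and 2.25 and 3.59 in cells without and 8.85 to 9.20 in the matching livers. How much hepatocyte RNA in the samples of cells contributed to the 9 genes there was not tested.

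**Figure D1:**
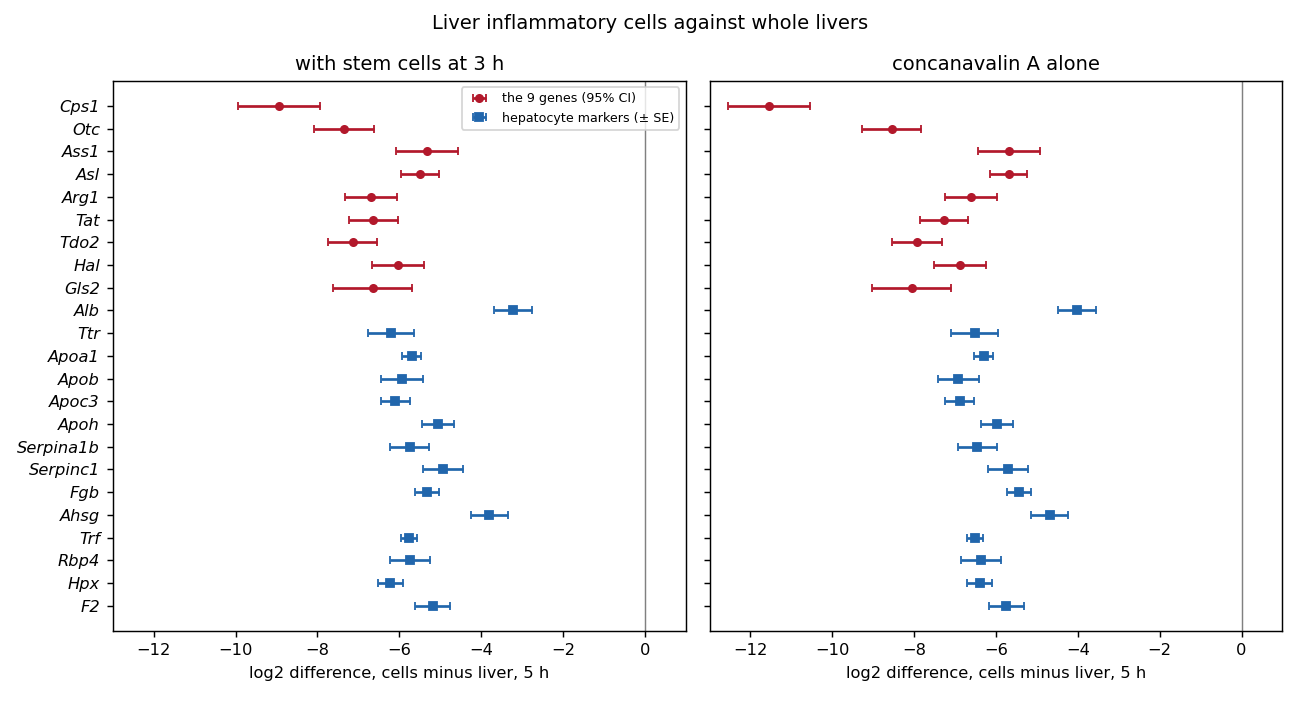
Log2 difference between inflammatory cells and livers at 5 h (horizontal axis), with stem cells (left) and with concanavalin A alone (right), for the 9 genes (red circles, 95% confidence interval) and 14 hepatocyte markers (blue squares, standard error). All points lie below 0, and Cps1 lies farthest out, at -8.94 with stem cells and -11.54 with concanavalin A alone.

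The enzymes around these 9 genes were mostly lower in cells too. Of 82 other amino acid genes in 9 lists, 80 were measured, and 70 were lower and 4 higher with stem cells, 69 lower and 5 higher with concanavalin A alone. Background shares of genes higher in cells were 28.3% and 29.3%. Nags, whose product activates Cps1, differed by -6.07 ± 0.52 and -8.21 ± 0.52 on the log2 scale (limma, adjusted p = 3.45e-07 and 1.94e-08). Psat1, the aminotransferase of serine synthesis, was higher in cells by 2.52 and 4.48 (adjusted p = 0.00136 and 1.18e-05, limma), and Slc7a1, an uptake carrier for arginine, by 2.07 and 3.48 (adjusted p = 0.00515 and 0.000111).

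Within the inflammatory cells, the treated samples had higher mean levels of all 9 genes than the untreated ones, but 0 of 9 passed the threshold of 0.05 (limma, 4 arrays, adjusted p from 0.176 to 0.812), beside 0.0141% of all 14234 genes. At an unadjusted p under 0.05 there were 5 of 9, beside 2555 of all 14234 genes. The groups did not overlap for 8 of 9 genes, all but Arg1, while 27.7% of all genes had higher, not overlapping values in the treated samples. The median log2 difference was 1.14, beside 0.09 over all genes.

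Cps1 had the greatest difference, 2.81 ± 0.74 (95% confidence interval 1.02 to 4.60, adjusted p = 0.176, limma), with -2.61 and -1.65 in the treated and -5.99 and -3.90 in the untreated samples. Raised to the floor of its array in sample 983, the difference was 2.14, with no test. Gls2 had -0.52 and -0.13 in the treated samples, against -2.89 and -1.27 in the untreated ones, a difference of 1.76 ± 0.58 (adjusted p = 0.217). Hal had -0.01 and -0.61 in the treated and -1.87 and -1.52 in the untreated samples, a difference of 1.39 ± 0.39 (adjusted p = 0.188). For each of these 3 genes both treated samples lay above both untreated ones. Otc differed by 1.40 ± 0.55 and Tdo2 by 1.14 ± 0.41. The remaining genes differed by less: Tat by 0.73 ± 0.44, Asl by 0.51 ± 0.36, Ass1 by 0.51 ± 0.38 and Arg1 by 0.24 ± 0.47.

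These values rested on single samples and on the background correction. Without sample 983, Cps1 differed by 1.76, Otc by 0.69 and Gls2 by 0.94, with adjusted p of 0.246, 0.523 and 0.375 (limma), and 0 of 9 genes passed. Without sample 985, Otc and Gls2 passed, at 2.11 and 2.57 (adjusted p = 0.0275 and 0.0174), as did 2085 of all genes, with the lone untreated sample assumed to vary like the treated ones. Cps1 passed there too (adjusted p = 0.0159), but its 1 untreated value, in sample 983, was not well above background, so only a bound of at least 5.76-fold holds. With another background correction, normexp, Cps1 and Gls2 passed, at 1.27 and 1.21 (adjusted p = 0.0319 and 0.0461), as did 1004 of all genes, beside 2 in the main setting. Hepatocyte markers were higher in the treated cells for 14 of 14 genes, with a median of 0.86 and 0 past the threshold, and 3 of 14 did not overlap. Neutrophil markers were higher for 9 of 9, with a median of 1.86 and 0 past the threshold, and macrophage and monocyte markers for 9 of 9, with a median of 1.52 and 0 past it. The part of any of these in the values of the 9 genes was not tested. Of 76 other amino acid genes measured in cells, 0 passed, 50 were above 0 and the median was 0.58.

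**Figure D2:**
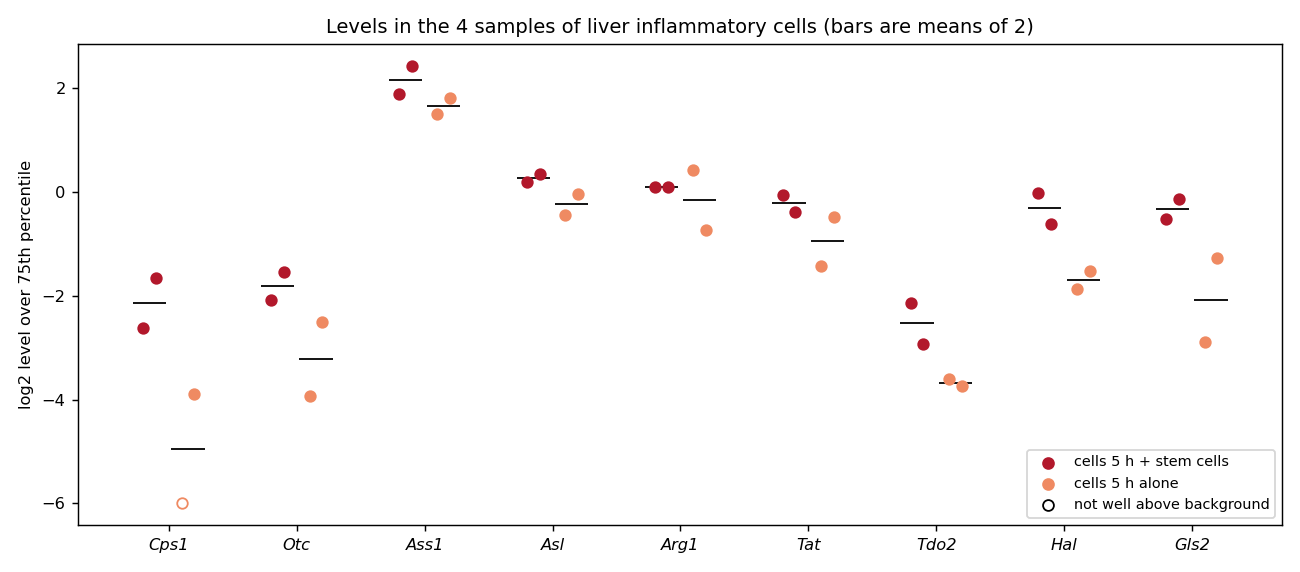
Log2 level relative to the array's 75th percentile (vertical axis) of the 9 genes in each sample of inflammatory cells, with stem cells (red) and with concanavalin A alone (orange), black bars being means of 2. The treated samples lie above the untreated ones for 8 genes, Arg1 being the exception, and the open circle marks Cps1 in sample 983, which was not well above background.

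Among livers the same genes varied far less than between cells and livers. Over the 12 livers the range from lowest to highest ran from 0.60 for Cps1 to 1.51 for Hal on the log2 scale. The mean was lowest at 5 h after concanavalin A alone for all 9 genes. Among the 2 h livers, 8 of 9 genes had their highest value in mouse 10 or mouse 13, Tat being the exception. Mouse 13 was highest only for Ass1 and Gls2, and was the lowest 2 h liver for Tat and Tdo2, at 6.29 and 4.35. In neutrophil markers, the same 2 livers were lowest of the 12, with median values of -1.88 and -2.78 relative to the mean of livers, while their hepatocyte marker values were -0.07 and -0.25. Mouse 1 had the highest hepatocyte marker value, 0.41.

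At 5 h, livers given stem cells at 3 h had higher means of all 9 genes than livers after concanavalin A alone, and this held under every scaling run. However, 0 of 9 passed (limma, adjusted p from 0.424 to 0.881), beside 0.0342% of all 14635 genes. An unadjusted p under 0.05 was found for 0 of 9, beside 1814 of all genes. The groups did not overlap for 6 of 9 genes (Otc, Asl, Arg1, Tdo2, Hal and Gls2), while 12.7% of all genes had higher, not overlapping values with stem cells. The median log2 difference was 0.31, beside 0.08 over all genes and 0.20 over 14 hepatocyte markers, 13 of which were above 0. Neutrophil markers were higher with stem cells for 9 of 9 genes, with a median of 0.55, macrophage and monocyte markers for 8 of 9 (0.43), endothelial markers for 7 of 8 (0.53) and B cell markers for 7 of 7 (0.47). None of these passed, and their part in the values was not tested.

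Hal had 5.80, 5.51 and 5.84 with stem cells, against 5.19, 5.22 and 5.17 with concanavalin A alone. Every treated liver lay above every untreated one, and the difference was 0.52 ± 0.24 (95% confidence interval -0.02 to 1.06, adjusted p = 0.424, limma). Within the slides it was 0.61, 0.62 and 0.33. Tdo2 had 4.48, 4.65 and 4.70 with stem cells and 3.98, 4.41 and 4.39 without, a difference of 0.35 ± 0.22. Gls2, with 6.59, 6.10 and 6.28 against 6.02, 6.07 and 5.85, differed by 0.34 ± 0.31. For Asl and Arg1 mouse 1 stood above the other livers with stem cells: Asl had 6.11 in mouse 1, 5.57 and 5.62 in the other treated mice and 5.51, 5.41 and 5.46 in the untreated ones. Arg1 had 7.09 in mouse 1, 6.64 and 6.60 in the other treated mice and 6.55, 6.44 and 6.42 in the untreated ones. Their differences were 0.31 ± 0.17 and 0.31 ± 0.18. Otc and Cps1 differed by 0.20 ± 0.16 and 0.21 ± 0.17, Ass1 by 0.14 ± 0.31 and Tat by 0.08 ± 0.18. Without mouse 1 the median over the 9 genes was 0.14, and 8 of 9 were above 0.

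At 2 h, livers given stem cells immediately and livers after concanavalin A alone overlapped for all 9 genes. None passed (limma, 0 of 9, adjusted p from 0.864 to 0.981), beside 0.0273% of all genes, and 8.22% of all genes did not overlap. An unadjusted p under 0.05 was found for 0 of 9, beside 825 of all 14635 genes. The median difference was 0.07, beside 0.08 over all genes. It was -0.38 with normexp, where all 9 genes were below 0, so no direction holds across the scalings. Hal had 6.16, 6.20 and 6.68 in livers given stem cells, against 5.58, 5.79 and 6.57 in those not given them, a difference of 0.36 ± 0.24 (95% confidence interval -0.18 to 0.90). Its within-slide differences were 0.36, 1.10 and -0.37. Gls2 had 6.25, 6.16 and 7.06 with stem cells and 6.05, 6.10 and 7.10 without, so that 1 liver of each group, mouse 10 and mouse 13, stood about equally high. Ass1 had 7.32, 7.24 and 7.84 with stem cells and 7.44, 6.89 and 8.27 without, the widest spread of any liver group among the 9 genes. Tdo2 differed by 0.28 ± 0.22, Arg1 by 0.22 ± 0.18, Tat by 0.17 ± 0.18 and Cps1 by -0.11 ± 0.17.

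The stem cell effects at 5 h and at 2 h also differ in when the cells were given. The effect at 5 h minus that at 2 h passed for 0 of 9 genes (limma, adjusted p = 0.9997 for each), beside 0.0137% of all genes. An unadjusted p under 0.05 was found for 0 of 9, beside 689 of all 14635 genes. The 2 effects use different livers on both sides. The fitted differences ran from -0.09 ± 0.25 for Tat to 0.32 ± 0.23 for Cps1, and their 95% confidence intervals all held 0.

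**Figure D3:**
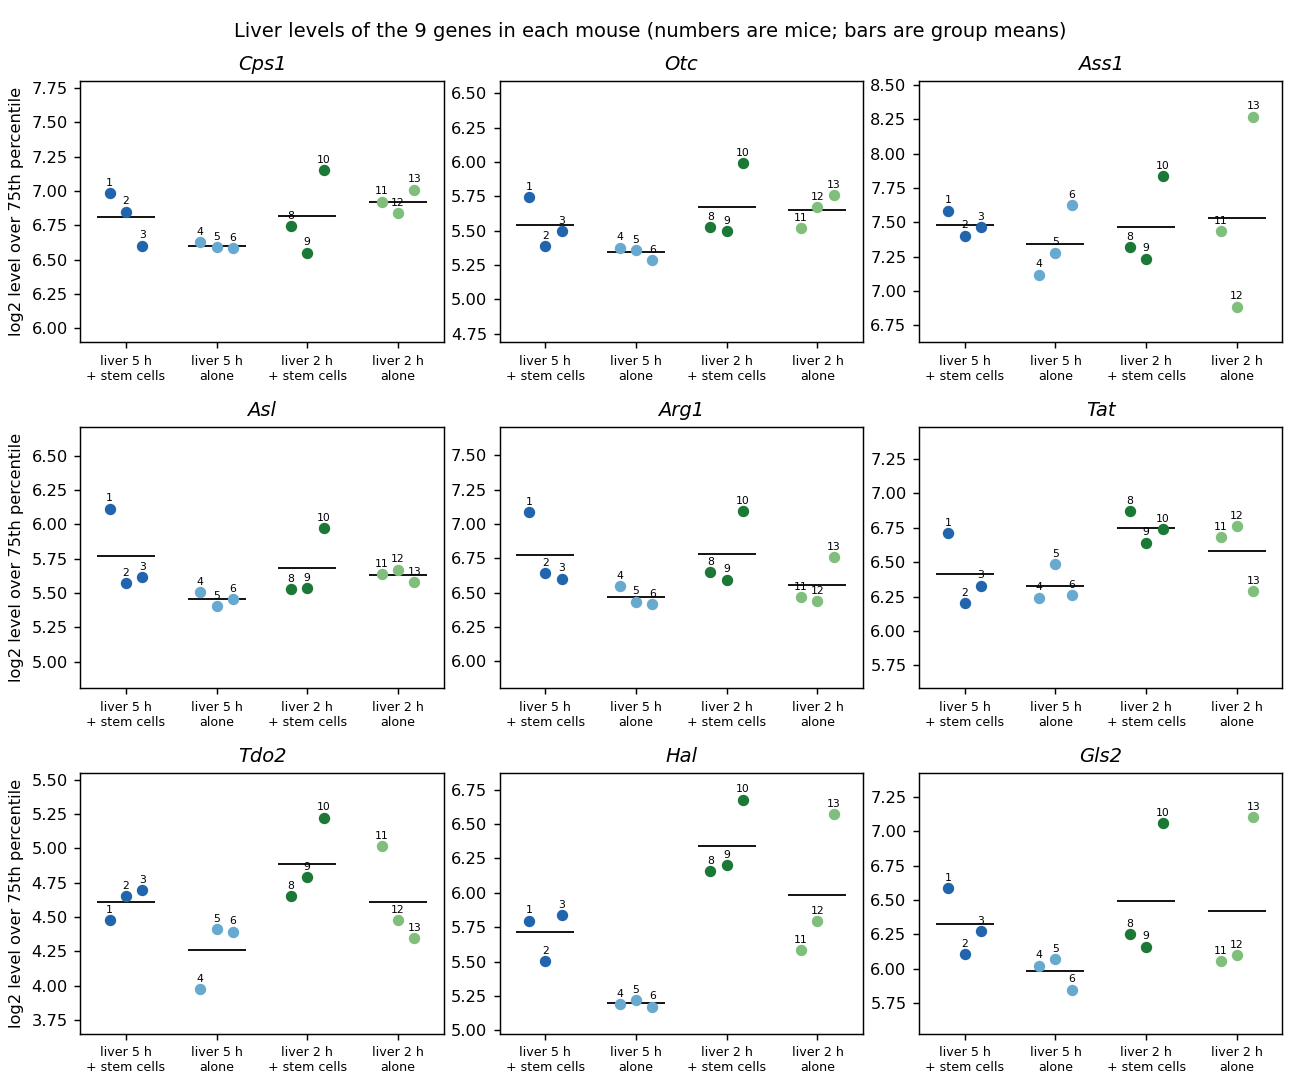
Log2 level relative to the array's 75th percentile (vertical axis, each spanning the same range) of the 9 genes in each of 12 livers, numbered by mouse, with the mean of 3 as a bar. Livers at 5 h after concanavalin A alone had the lowest mean for each gene, and Hal sits tightly there at 5.17 to 5.22. Among the 2 h livers, mouse 10 or mouse 13 is highest for every gene but Tat.

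From 2 h to 5 h after concanavalin A alone, the direction was downward in means for all 9 genes and none passed (limma, 0 of 9, adjusted p from 0.0541 to 0.773), beside 15.7% of all genes. At an unadjusted p under 0.05 there was 1 of 9, beside 4727 of all 14635 genes. Groups did not overlap for 4 of 9 genes (Cps1, Otc, Asl and Hal), all lower at 5 h, while 20.6% of all genes were lower and not overlapping. The median difference was -0.31, beside -0.07 over all genes and 0.09 over hepatocyte markers, of which 0 of 14 passed and 11 were above 0. Neutrophil markers were higher at 5 h for 9 of 9 genes, 2 of them past the threshold, with a median of 1.89. B cell markers were lower for 7 of 7, 2 of them past it (median -1.09), endothelial markers for 6 of 8, 4 of them past it (median -0.66), and macrophage and monocyte markers for 8 of 9, 0 of them past it (median -0.50). The part of these markers in the values was not tested. All 9 genes were below 0 under the main scaling, normexp and quantile normalization. With array weights Ass1 was above 0, at 0.31.

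Hal, the first enzyme of histidine breakdown, came closest among the chosen probes. It had 5.19, 5.22 and 5.17 at 5 h, against 5.58, 5.79 and 6.57 at 2 h, a difference of -0.79 ± 0.24 (95% confidence interval -1.33 to -0.24, adjusted p = 0.0541, limma). Every 5 h liver lay below every 2 h liver, by -0.60, -0.36 and -1.40 within the slides. It passed with quantile normalization (-0.90, adjusted p = 0.047), with array weights (-0.60, adjusted p = 0.0259) and without mouse 11 (-0.99, adjusted p = 0.0288), and did not in the other settings. Among those, the adjusted p was 0.0543 without mice 10 and 13 (-0.49), 0.0797 with slide as a block and 0.358 with normexp (-0.80), and it reached 0.134 when other single livers were left out. Cps1 had 6.63, 6.59 and 6.58 at 5 h and 6.92, 6.84 and 7.01 at 2 h, a difference of -0.32 ± 0.17 (adjusted p = 0.211). Otc had 5.38, 5.36 and 5.29 at 5 h and 5.52, 5.67 and 5.76 at 2 h, a difference of -0.31 ± 0.16 (adjusted p = 0.217). Both genes were lower on every slide. Gls2 differed by -0.44 ± 0.31, and by -0.10 without mice 10 and 13. Tdo2 differed by -0.35 ± 0.22, Tat by -0.25 ± 0.18, Ass1 by -0.19 ± 0.31, Asl by -0.17 ± 0.17 and Arg1 by -0.09 ± 0.18.

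With stem cells, 5 h livers (cells given at 3 h) and 2 h livers (cells given immediately) differ in schedule as well as in time. None of the 9 genes passed (limma, 0 of 9, adjusted p from 0.101 to 0.995), beside 18.5% of all genes. An unadjusted p under 0.05 was found for 1 of 9, beside 4878 of all 14635 genes. Hal alone did not overlap, while 24.2% of all genes were lower and not overlapping. Hal had 5.80, 5.51 and 5.84 at 5 h and 6.16, 6.20 and 6.68 at 2 h, a difference of -0.63 ± 0.24 (adjusted p = 0.101), and -0.36, -0.84 and -0.69 within the slides. Tat, which glucocorticoids induce in liver, had 6.71, 6.20 and 6.33 at 5 h and 6.87, 6.64 and 6.74 at 2 h, a difference of -0.34 ± 0.18 (adjusted p = 0.21). Tat passed with quantile normalization (-0.46, adjusted p = 0.0396), and Hal with array weights (-0.49, adjusted p = 0.0239). With normexp neither passed, Hal at -0.24 (adjusted p = 0.704) and Tat at 0.065 (adjusted p = 0.901), and Hal had an adjusted p of up to 0.299 when single livers were left out. The median over the 9 genes was -0.13, but 0.25 with normexp and 0.12 without mouse 10, so the list as a whole had no stable direction. Cps1 and Arg1 hardly differed, by -0.0023 ± 0.17 and -0.0033 ± 0.18. Neutrophil markers were higher at 5 h here too, for 9 of 9 genes with a median of 1.91, 3 of them past the threshold. Erythroid markers were higher for 5 of 5, 4 of them past it (median 1.22), and B cell markers lower for 7 of 7, 2 of them past it (median -0.59). Hepatocyte markers were higher for 13 of 14, 1 of them past the threshold (median 0.13). Endothelial markers were above 0 for 4 of 8, with 2 lower past it (median -0.24). Macrophage and monocyte markers were above 0 for 4 of 9, with 1 higher past it (median -0.015). The part of these markers was not tested.

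**Figure D4:**
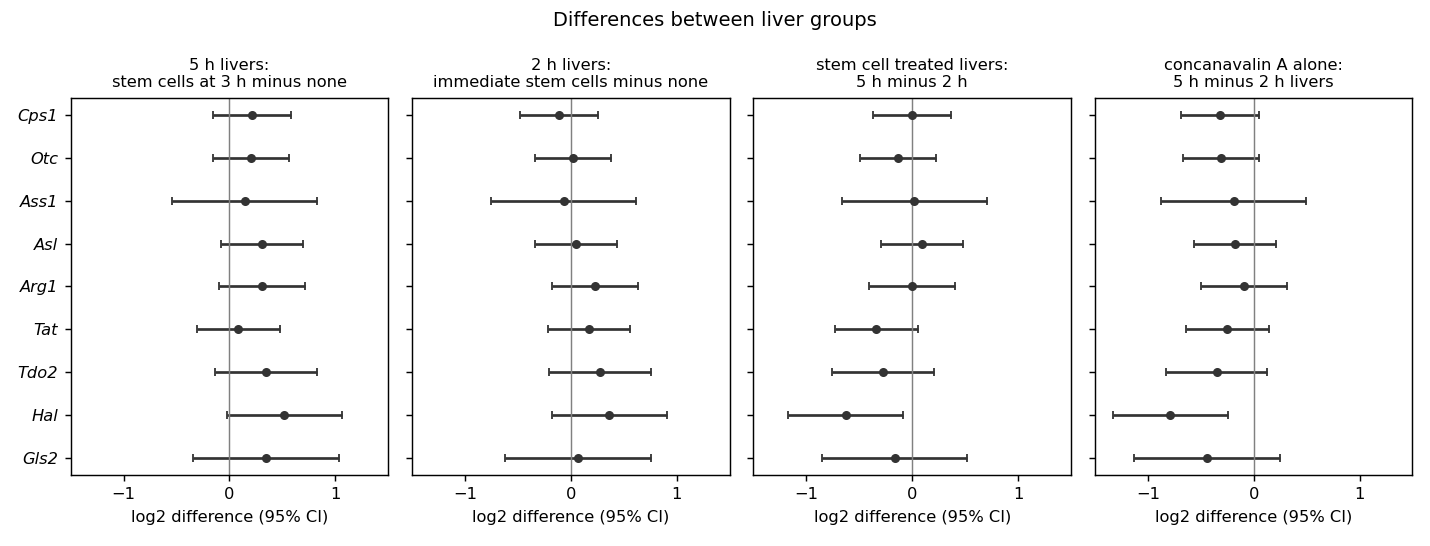
Log2 difference (horizontal axis) with its 95% confidence interval for each of the 9 genes in 4 liver comparisons. The intervals of Hal leave out 0 in both 5 h minus 2 h panels, -1.33 to -0.24 with concanavalin A alone and -1.17 to -0.09 with stem cells, and every other interval crosses 0.

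Genes next to these 9 in the pathways did pass between 5 h and 2 h. Of 79 other amino acid genes measured in livers, 8 fell and 2 rose at 5 h after concanavalin A alone, or 10.1% and 2.53%, beside 9.2% and 6.45% of all genes. With stem cells 4 fell and 4 rose, 5.06% each way, beside 9.74% and 8.75%. Shares of this size are near or under the background, so single genes are given for what they are. In histidine breakdown, Ftcd, the last step, fell by 0.86 ± 0.17 on the log2 scale after concanavalin A alone (adjusted p = 0.0118, limma), and Uroc1, the step after Hal, fell by 0.53 ± 0.15 (adjusted p = 0.0385). Car5a, the mitochondrial carbonic anhydrase that supplies bicarbonate to Cps1, fell by 1.38 ± 0.26 with stem cells (adjusted p = 0.0073) and by 1.20 ± 0.26 with concanavalin A alone (adjusted p = 0.0162).

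Of 10 other tryptophan genes, 1 fell and 0 rose with stem cells, beside 9.74% and 8.75% of all genes. Without stem cells 1 fell and 1 rose, beside 9.2% and 6.45%. Ido2 fell by 0.79 ± 0.20 with stem cells and by 0.93 ± 0.20 without (adjusted p = 0.0227 and 0.0149, limma). Ido1, the inducible enzyme for the step that Tdo2 takes in hepatocytes, rose after concanavalin A alone (adjusted p = 0.0153). It was not well above background in any 2 h liver of that group and was in 2 of 3 at 5 h, so only a bound holds, at least 1.21-fold, with measured means of -4.05 at 5 h and -5.39 at 2 h. Nos2, the inducible enzyme that makes nitric oxide from arginine, rose by 2.23 ± 0.51 after concanavalin A alone (adjusted p = 0.0194). With stem cells Nos2 was not well above background in any 2 h liver, and the bound is at least 1.95-fold (adjusted p = 0.0102, means -3.69 at 5 h and -6.17 at 2 h). Odc1, which turns ornithine into putrescine, rose by 1.16 ± 0.35 with stem cells (adjusted p = 0.0415), and its difference with concanavalin A alone was 1.05 ± 0.35 (adjusted p = 0.0641).

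Among carriers, Slc43a1 rose by 2.41 ± 0.35 with stem cells and by 2.16 ± 0.35 without (adjusted p = 0.00215 and 0.00477, limma). Slc38a3, which moves glutamine, fell by 0.83 ± 0.19 and 0.86 ± 0.19 (adjusted p = 0.0157 and 0.0163). Slc25a44, the mitochondrial carrier of branched-chain amino acids, fell by 0.87 ± 0.15 and 0.60 ± 0.15 (adjusted p = 0.00469 and 0.0258). Slc7a1 rose by 1.82 ± 0.52 with stem cells (adjusted p = 0.0352), and Slc38a4 fell by 0.97 ± 0.26 with concanavalin A alone (adjusted p = 0.0309). Among 15 regulators, 3 fell and 0 rose with stem cells, beside 9.74% and 8.75% of all genes. Without stem cells 3 fell and 2 rose, beside 9.2% and 6.45%. Ppargc1a, a coactivator of the fasting response, fell by 1.58 ± 0.28 with stem cells and by 1.28 ± 0.28 without (adjusted p = 0.0053 and 0.0153). Klf15, a glucocorticoid-induced regulator of amino acid breakdown, fell by 4.33 ± 0.68 with stem cells (adjusted p = 0.0033). Cebpb and Atf4 rose after concanavalin A alone, by 0.79 ± 0.21 and 0.89 ± 0.21 (adjusted p = 0.0325 and 0.0231, limma). In the same comparison Creb3l3 fell by 0.80 ± 0.19 and Gcgr, the glucagon receptor, by 0.52 ± 0.15, and with stem cells Nr3c1, the glucocorticoid receptor, fell by 0.59 ± 0.18 (adjusted p = 0.0209, 0.039 and 0.0481). Of 8 glucocorticoid and glucagon responsive genes, 4 fell with stem cells and 2 without, beside 9.74% and 9.2% of all genes, and 0 rose. As a list they had no common direction: 4 of 8 were above 0 with stem cells and 5 of 8 without. The medians were -0.38 and 0.42. G6pc, a target of glucagon and glucocorticoids, fell by 7.72 ± 0.67 with stem cells and by 5.29 ± 0.67 without (adjusted p = 0.000326 and 0.00233), while none of the 9 genes differed by as much as 1 on that scale. Tsc22d3, a glucocorticoid target, fell by 1.67 ± 0.19 and 0.87 ± 0.19 (adjusted p = 0.00073 and 0.0144). Per1 and Sgk1 fell with stem cells, by 1.83 ± 0.49 and 1.06 ± 0.24 (adjusted p = 0.0281 and 0.0151). Sdsl, of the serine and threonine list, rose by 0.58 ± 0.17 with stem cells (adjusted p = 0.0414), and the lists of glutamine, methionine and branched-chain genes held 0 past the threshold in either comparison. No gene of these lists passed in either stem cell comparison of livers, or for the difference of stem cell effects. A change that passed in 1 treatment only therefore does not set the 2 treatments apart.

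**Figure D5:**
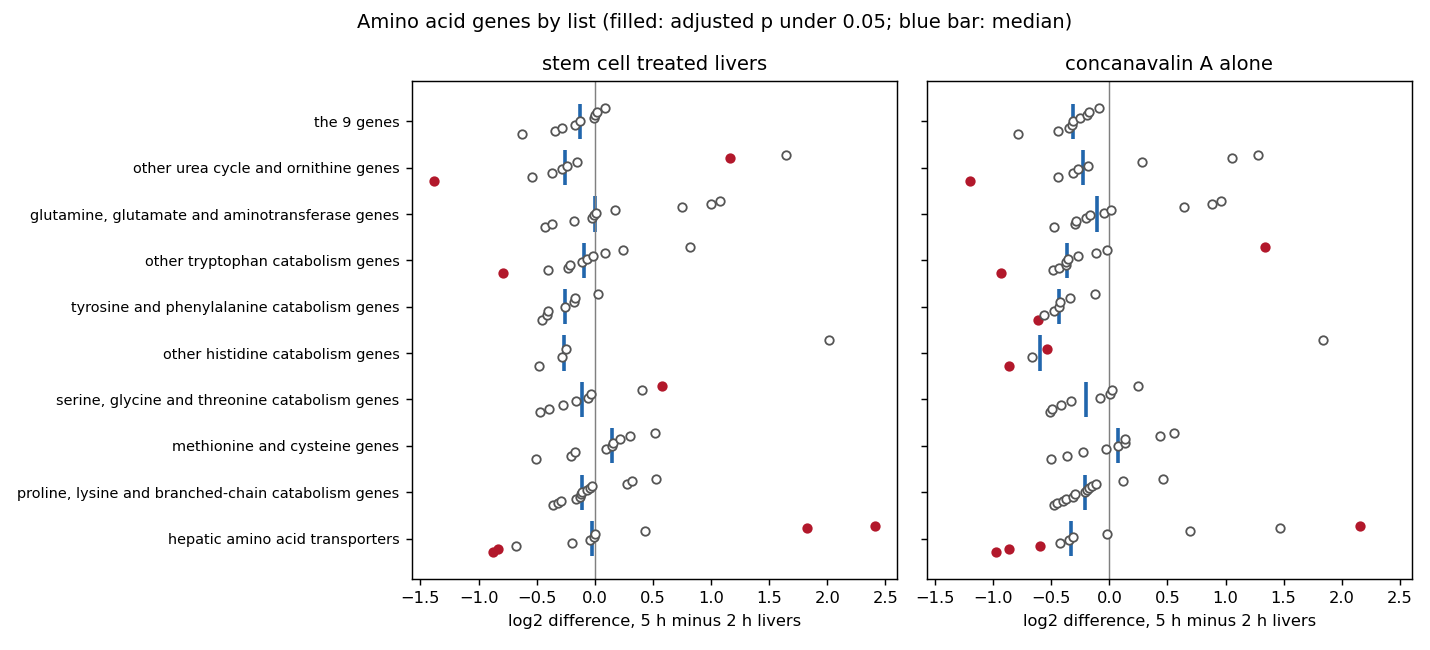
Log2 difference between 5 h and 2 h livers (horizontal axis) of the 9 genes and of 9 lists of other amino acid genes, 1 point per gene, with stem cells (left) and with concanavalin A alone (right). Filled points passed the threshold and blue bars are medians. No point of the 9 genes is filled, and their medians lie at -0.13 and -0.31.

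Among themselves the 9 genes went together in part. Across the 12 livers, 35 of the 36 pairs had a Pearson r above 0, with a median of 0.52, from -0.23 for Ass1 and Tat to 0.87 for Otc and Gls2. These arrays share slides, treatment groups and a scaling, so the values describe this set and carry no p. Over 14634 other genes, the one nearest to Otc was Sardh (r = 0.98), followed by Hpd (0.97), both of hepatic amino acid breakdown. Nearest to Arg1 was Ahcy (0.94), which splits S-adenosylhomocysteine. Tdo2 had Sec24a (0.90) and Slc10a1 (0.90), the bile acid carrier of hepatocytes, and Hal had Uqcc3 and Eva1b (both 0.98). For Cps1 it was Hamp2 (0.90), for Ass1 Rgs19 (0.90), for Asl Adk (0.93), for Tat Poldip2 (0.95) and for Gls2 Llgl2 (0.95).

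The further probes of Otc, Ass1 and Tdo2 had the same sign as the chosen ones in livers at 5 h minus 2 h and in 5 h livers, but the dimmest Otc probe gave larger values. At 5 h minus 2 h after concanavalin A alone the other Otc probes gave -0.32 and -0.81 beside -0.31. There the other Ass1 probe gave -0.16 beside -0.19 and the other Tdo2 probe -0.31 beside -0.35. In a fit of all 25212 kept probes, the adjusted p there was 0.0535 for the dimmest Otc probe and 0.0672 for the Hal probe (limma). For stem cells against none at 5 h, the other Otc probes gave 0.10 and 0.47 beside 0.20, the other Ass1 probe 0.17 beside 0.14 and the other Tdo2 probe 0.25 beside 0.35. In 2 h livers, where all values of Otc and Ass1 lay near 0, the dimmest Otc probe gave -0.0018 beside 0.022 and the other Ass1 probe 0.0088 beside -0.068. In cells, stem cells against none, the other Ass1 probe gave 0.58 beside 0.51 and the other Tdo2 probe 1.42 beside 1.14. The brighter of the other Otc probes gave 2.00 beside 1.40. That value rests in part on untreated sample 983, where the probe was not well above background.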

How the data were processed

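The deposited scanner files hold spot intensity on a linear scale, which the authors extracted with Agilent Feature Extraction 10.5.1.1 (source: headers and submitters' processing notes). Background was, per the file headers, subtracted and the signal detrended across each array, with no normalization between arrays, and probe positions are on build mm8. The authors' value table holds the same intensity values, with a largest difference of 0, neither centred nor logged, so using it changed no value.

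Control spots were left out, outlier spots set to missing, and each array's log2 processed signal was set against its 75th percentile (212 to 426 units). A probe was kept when well above background on at least 3 of 12 liver arrays, 2 of 4 arrays of cells, or 2 of 16 arrays in the fit of both. Each gene was represented by its brightest kept probe, by mean level over the arrays of the fit. Groups were compared with limma 3.58.1 in R 4.3.3 (lmFit and eBayes, 2-sided), with Benjamini-Hochberg adjustment over 14635, 14234 and 16283 genes and a threshold of 0.05. Errors after ± are standard errors of these fits. Bounds raise each signal to the lowest one well above background on its array. The method was tested on simulated data with planted changes larger than any liver difference of the genes described here. That test does not cover changes as small as theirs.

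The genes, the lists and the alternatives were chosen with earlier results of these data known. The text names all 9 genes, genes of the other lists past the threshold (at most 4 per list and comparison, otherwise at most 3), and up to 3 genes with the highest r to each of the 9. Some genes of these lists are not reported here. Other settings were normexp with an offset of 50, quantile normalization, no filter on dim probes, the mean of a gene's probes, slide as a block, array weights, only the arrays compared, and leaving out replicates or mice 10 and 13. On each slide the livers at 2 h after concanavalin A alone took the same position, and so did those with immediate stem cells, so position and group cannot be told apart there. The number of arrays limits the precision.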

Additional observations from a re-analysis of the deposited data

How the results depend on the processing

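The 9 genes were all lower in cells than in livers, past the threshold, under every setting run, with each sample left out too. The number past the threshold was otherwise 0 except as follows: 1 with quantile normalization and 1 with array weights in each 5 h against 2 h comparison, 2 with normexp in cells, 0 to 1 leaving out a replicate at 5 h against 2 h after concanavalin A alone, and 0 to 3 leaving out a replicate in cells. Slide as a block changed no call of the 9 genes. No paired analysis was possible because every mouse has a number of its own, so the groups share no replicate numbers, and the slide stood in as a block.

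Signs turned for differences that had not passed, and the cause was not tested. With normexp, 5 h against 2 h with stem cells gave Cps1 0.36, Otc 0.25, Arg1 0.38, Tat 0.065, Tdo2 0.085 and Gls2 0.21. In 2 h livers, stem cells against none, normexp gave Otc -0.42, Asl -0.42, Arg1 -0.25, Tat -0.31, Tdo2 -0.15, Hal -0.11 and Gls2 -0.38, and for the difference of effects it gave Tat 0.32. Quantile normalization turned Ass1 (-0.038) and Asl (-0.023) at 5 h against 2 h with stem cells, and Otc (-0.018) and Asl (-0.00083) in 2 h livers. Array weights turned Ass1 (0.31) with concanavalin A alone, Cps1 (0.13), Arg1 (0.10) and Gls2 (0.067) at 5 h against 2 h with stem cells, Otc (-0.093), Ass1 (0.16), Asl (-0.086) and Tat (-0.018) in 2 h livers, and Ass1 (-0.13) and Tat (0.11) for the difference of effects. Without mice 10 and 13, the turned values were Ass1 0.18 and Arg1 0.013 with concanavalin A alone, Cps1 0.16, Otc 0.030, Arg1 0.15 and Gls2 0.12 with stem cells, Otc -0.085, Ass1 0.12, Asl -0.12 and Tdo2 -0.023 in 2 h livers, and Tat 0.050 for the difference of effects.

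Leaving out single replicates, ranges that crossed 0 were, at 5 h against 2 h after concanavalin A alone, Ass1 -0.51 to 0.18 and Arg1 -0.15 to 0.013. With stem cells they were Cps1 -0.13 to 0.16, Otc -0.23 to 0.030, Ass1 -0.094 to 0.21, Asl -0.084 to 0.24, Arg1 -0.16 to 0.15 and Gls2 -0.33 to 0.12. In 2 h livers they were Cps1 -0.27 to 0.024, Otc -0.14 to 0.11, Ass1 -0.39 to 0.30, Asl -0.10 to 0.13 and Gls2 -0.21 to 0.41, and in 5 h livers Tat -0.065 to 0.19. For the difference of effects they were Ass1 -0.16 to 0.53, Arg1 -0.069 to 0.24, Tat -0.24 to 0.055, Tdo2 -0.13 to 0.24, Hal -0.14 to 0.36 and Gls2 -0.069 to 0.56, and in cells Arg1 -0.34 to 0.83, below 0 without sample 985.

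Counts over all genes moved more. At 5 h against 2 h, 2706 genes passed with stem cells, from 804 with normexp to 4854 with array weights, and 2291 after concanavalin A alone, from 280 with normexp to 3452 with array weights. Stem cells against none gave 5 in 5 h livers (1 to 229), 4 in 2 h livers (0 to 493), 2 in cells (1 to 1004) and 2 for the difference of effects (0 to 57). For cells against livers the counts were 10385 with stem cells (6688 to 10581) and 9923 without (7104 to 10009). The median of all genes, cells against livers, was 0.19 with normexp and -0.05 with quantile normalization with stem cells, against -0.23 in the main scaling, and -0.13 and 0.09, against -0.04, without.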
